A study of Mus musculus with 36 samples.

Results

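Chromatin bound by Cas9 was immunoprecipitated from the hypothalamus of mice and from a neuroblastoma cell line of the mouse, Neuro2A, and the peaks that lay outside every gene on a placed chromosome are described here. A peak was taken when it stood on chromosome 1 to 19, X or Y, did not start below base 3100000 of chromosome 9, and overlapped no gene of the deposited gene table by its start and end. Of 822 peaks in 6 deposited lists, 559 stood on placed chromosomes by this rule, 329 of these overlapped a gene, and 230 (28.0% of all, 41.1% of the placed) were intergenic. The closest intergenic peak ended 37 bp from a gene, and the placed peak left out by the smallest margin overlapped one by 2 bp. Peaks of different lists that overlapped by at least 1 base were joined into 120 regions, each named here by its nearest gene.

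The 6 lists stood for an enhancer sgRNA and a promoter sgRNA, each with a polyclonal antibody to Streptococcus pyogenes Cas9 (SpCas9) in hypothalamus, with a monoclonal antibody to Staphylococcus aureus Cas9 (SaCas9) in hypothalamus, and with the SpCas9 antibody in Neuro2A cells. The hypothalami were from adult B6/FVB mice of the genotype Sim1 +/-, which keep 1 working copy of Sim1, so every hypothalamic list shares that deletion. By the labels the enhancer sgRNA tissue was pooled from both sexes and the promoter sgRNA tissue was female, so the guide and the sex of the tissue cannot be told apart. The Neuro2A libraries carry the same mouse genotype, strain, age and sex entries, although they are labelled as a cell line. The labels give 2 libraries for each condition and the files 1 list, so a difference between lists has no replicate check, no test between lists was possible, and the values below are descriptions of these lists. Which Cas9 the mice and cells carried, and the sequences and targets of the guides, are not given in the sources used here.

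RNA was sequenced from the hypothalami of 4 Sim1 +/- mice with the enhancer sgRNA (3 to 7 months old, 2 male), 6 Sim1 +/- mice with the promoter sgRNA (3 to 9 months, 2 male), 4 Sim1 +/- mice without an sgRNA (4 to 9 months, 1 male) and 5 wild-type mice (3 to 9 months, 1 male). The strain was B6/FVB except for Sim1 heterozygous F_3 and wild-type F_2, which were B6. RNA reads were recovered from the deposited normalized counts and cover only the genes listed there. They came to 14.6 to 52.9 M per library with the enhancer sgRNA and 14.1 to 56.5 M with the promoter sgRNA. Sim1 +/- libraries without an sgRNA had 19.4 to 48.0 M.

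CRISPR activation uses a Cas9 that binds DNA where its guide RNA pairs but does not cut, and that carries a transcriptional activator to that place. Binding needs a short motif beside the target, NGG for SpCas9, and a guide can also hold Cas9 at places that match it in part. Sim1 encodes a transcription factor that neurons of the paraventricular nucleus of the hypothalamus need, and loss of 1 copy causes obesity in mice and humans. An enhancer can act on a gene over a long distance, so the gene nearest to an intergenic peak is an address and not a stated target.

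Both intergenic peaks within 1 Mb of Sim1 were in all 6 lists. The first, called the promoter site here, covered chr10:50893920-50894717 (GRCm38) over all lists and ended 37 to 50 bp before the start of Sim1, which the deposited table places on the plus strand at chr10:50894754-50989152. Peak summits fell within 138 bp of each other. The RefSeq start of Sim1, at base 50894698, lies inside these peaks, and the RefSeq long non-coding RNA gene A230054N11Rik, transcribed the other way, starts at base 50894534. The second, called the distal site, covered chr10:51257350-51258162 and lay 268198 to 268224 bp beyond the end of Sim1 and 222450 to 222462 bp before Lilrb4a, a gene for an inhibitory receptor of leukocytes. Its summits fell within 157 bp of each other.

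A stretch of sequence under the promoter peaks is shown because the site was found in every list, and it could be read from the RefSeq promoter window of A230054N11Rik. It is the plus strand of chr10:50894485-50894697 (GRCm38.p6), 213 bases that lay inside the peak of all 6 lists but hold no summit: the 6 summits lay to the left of it, at bases 50894234 to 50894372. Capitals mark the 163 bases between the starts of both RefSeq genes, and lower case marks the first bases of A230054N11Rik.
Sim1 promoter site: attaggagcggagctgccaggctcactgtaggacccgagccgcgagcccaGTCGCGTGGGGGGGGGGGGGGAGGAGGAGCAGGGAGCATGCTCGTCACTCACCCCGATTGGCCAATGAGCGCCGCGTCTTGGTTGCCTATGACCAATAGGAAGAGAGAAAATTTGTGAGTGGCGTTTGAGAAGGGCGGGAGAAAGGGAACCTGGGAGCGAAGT
The whole RefSeq window of 300 bases held 64 matches to NGG over both strands, overlapping matches included, against a median of 48 in 32851 promoter windows of that length, of which 100% held at least 1. Its G and C content was 58.7%, against a median of 52.7%, and 32.9% of all windows were as rich. This window too holds none of the summits. The counts describe its letters, and no site where a guide pairs is shown by them.

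Pileup, the number of fragments that overlap at the summit, was nearly level over the lists at both sites. All 822 pileups were whole numbers, and total fragments per ChIP library are unknown. The lowest background plus 1 of a list ran from 1.43 to 5.74 fragments. Level pileups therefore need not mean level binding, here or in the comparisons between lists below. At the distal site it was 268 with the enhancer sgRNA and 256 with the promoter sgRNA for SpCas9 in hypothalamus. With the SaCas9 antibody it was 239 with the enhancer sgRNA and 259 with the promoter sgRNA. In Neuro2A cells it was 267 with the enhancer sgRNA and 192 with the promoter sgRNA. The distal site thus stood above 230 in each list except that of Neuro2A cells with the promoter sgRNA.

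At the promoter site pileup was 252 with the enhancer sgRNA and 248 with the promoter sgRNA for SpCas9 in hypothalamus. With the SaCas9 antibody it was 221 with the enhancer sgRNA and 251 with the promoter sgRNA. In Neuro2A cells it was 250 with the enhancer sgRNA and 244 with the promoter sgRNA. Neither site was missing where the labels name the guide for the other element. The ratio of the distal site to the promoter site was 1.03 to 1.08 in 5 lists, those of both guides among them, and 0.787 in Neuro2A cells with the promoter sgRNA. By −log10 q, both sites ranked between 1 and 4 among the intergenic peaks of their lists.

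Fold enrichment, the pileup over the local background (each plus 1), differed more between lists than pileup did. At the distal site it was 143 with the enhancer sgRNA and 180 with the promoter sgRNA for SpCas9 in hypothalamus. With the SaCas9 antibody it was 39.0 with the enhancer sgRNA and 69.7 with the promoter sgRNA. In Neuro2A cells it was 130 with the enhancer sgRNA and 43.2 with the promoter sgRNA. The order of these folds over the lists was the reverse of the order of the background. The background plus 1 was 1.88 fragments with the enhancer sgRNA and 1.43 with the promoter sgRNA for SpCas9 in hypothalamus, 6.16 with the enhancer sgRNA and 3.73 with the promoter sgRNA for SaCas9, and 2.06 with the enhancer sgRNA and 4.47 with the promoter sgRNA in Neuro2A cells. Folds are for this reason not compared between lists below, and the pileups compared there are not scaled to the background.

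**Figure D1:**
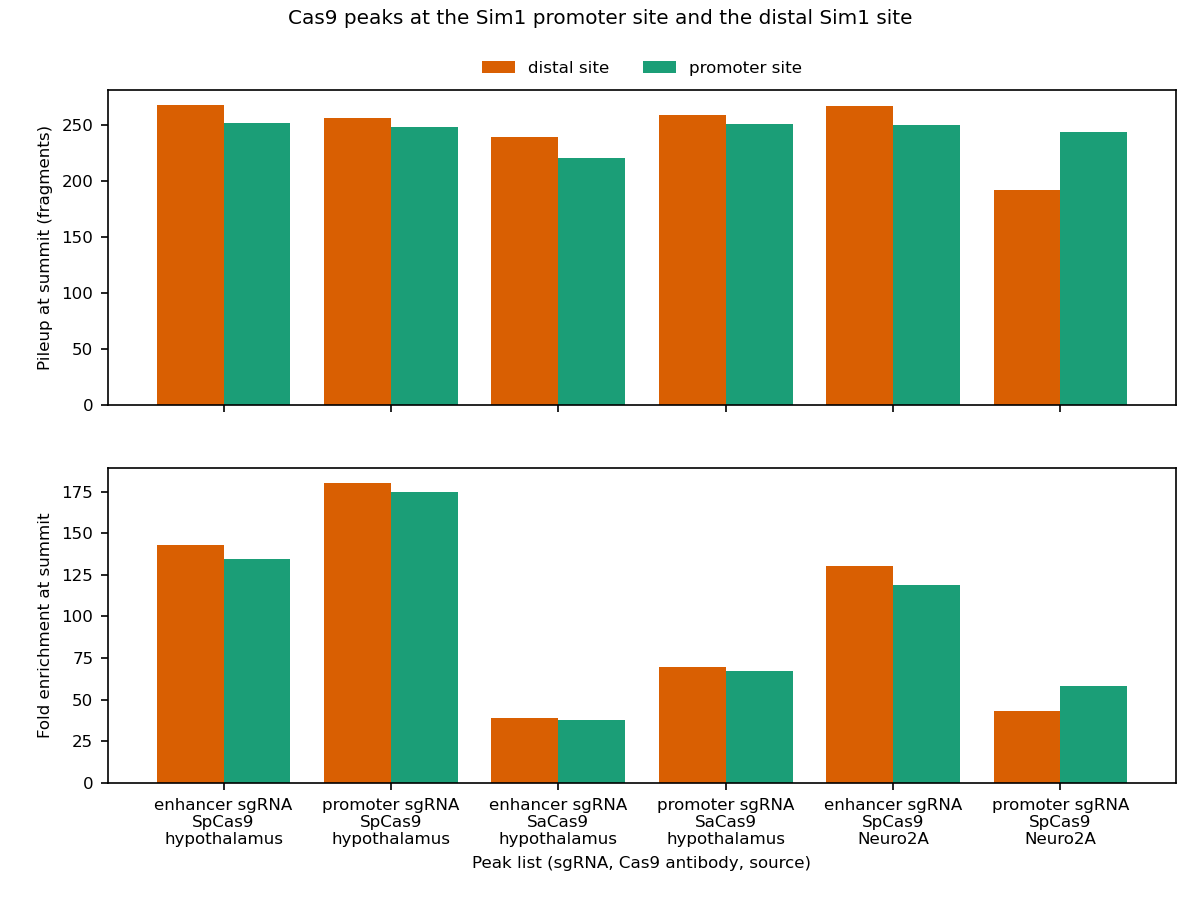
Pileup at the summit (top, fragments) and fold enrichment (bottom) at the distal Sim1 site and the promoter site in each of the 6 peak lists, 1 value per list with no error. Pileup at the distal site runs from 192 to 268 and at the promoter site from 221 to 252, while fold enrichment runs from 39.0 to 180 and from 38.0 to 175.

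Only 2 other regions were in all 6 lists, and both had fewer fragments. The Srsf5 region, chr12:80932142-80932744, 12760 bp upstream of a gene for a splicing factor of the SR family, had pileups of 58 with the enhancer sgRNA and 55 with the promoter sgRNA for SpCas9 in hypothalamus. It had 49 with the enhancer sgRNA and 47 with the promoter sgRNA for SaCas9, and 53 with the enhancer sgRNA and 46 with the promoter sgRNA in Neuro2A cells. The 6 lists were thus nearly level in pileup there, as at the Sim1 sites. The Adgrd1 region, chr5:129279493-129280092, 74894 bp downstream of a gene for an adhesion G protein-coupled receptor, had 70 with the enhancer sgRNA and 71 with the promoter sgRNA for SpCas9 in hypothalamus. It had 33 with the enhancer sgRNA and 30 with the promoter sgRNA for SaCas9, and 69 with the enhancer sgRNA and 25 with the promoter sgRNA in Neuro2A cells. Its pileup was thus lower in both SaCas9 lists and in Neuro2A cells with the promoter sgRNA, the lists of higher background.

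The lists differed in how many intergenic peaks they held. For SpCas9 in hypothalamus the enhancer sgRNA list held 61 of its 137 peaks and the promoter sgRNA list 32 of 92. With the SaCas9 antibody the enhancer sgRNA list held 25 of 121 and the promoter sgRNA list 30 of 140. In Neuro2A cells the enhancer sgRNA list held 57 of 205 and the promoter sgRNA list 25 of 127. As a share of the placed peaks of a list, intergenic peaks made up 36.6% to 46.9%, a narrower range than the counts. Within a list, intergenic peaks and peaks in genes had like medians: in the SpCas9 hypothalamus list of the enhancer sgRNA the median pileup was 25 between genes and 24 within them, and in that of the promoter sgRNA it was 31.5 between genes and 23.5 within them. In the other 4 lists it was lower between genes. For SaCas9 it was 109 between genes and 131 within them with the enhancer sgRNA, and 67.5 between genes and 73.5 within them with the promoter sgRNA. In Neuro2A cells it was 40 between genes and 45 within them with the enhancer sgRNA, and 91 between genes and 98 within them with the promoter sgRNA.

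Of the 120 regions, 69 were in 1 list, 25 in 2 lists, 7 in 3, 11 in 4, 4 in 5 and 4 in all 6. Most single-list regions came from the enhancer sgRNA with the SpCas9 antibody, 32 in hypothalamus and 26 in Neuro2A cells. Their peaks were lower at the median: the median pileup was 18.5 in hypothalamus, against 70 for the shared peaks of the same list, and 31 in Neuro2A cells, against 68. Not all were low, since the highest pileup among them was 51 in hypothalamus and 110 in Neuro2A cells. Regions found in a single list of the promoter sgRNA numbered 4 for SpCas9 and 3 for SaCas9 in hypothalamus and 1 in Neuro2A cells, and the SaCas9 list of the enhancer sgRNA alone held 3. The Lgi1 region was in 2 promoter sgRNA lists and in no enhancer sgRNA list. A region that is missing from a list was not called there, which at low pileup need not mean that fewer fragments lay there.

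**Figure D2:**
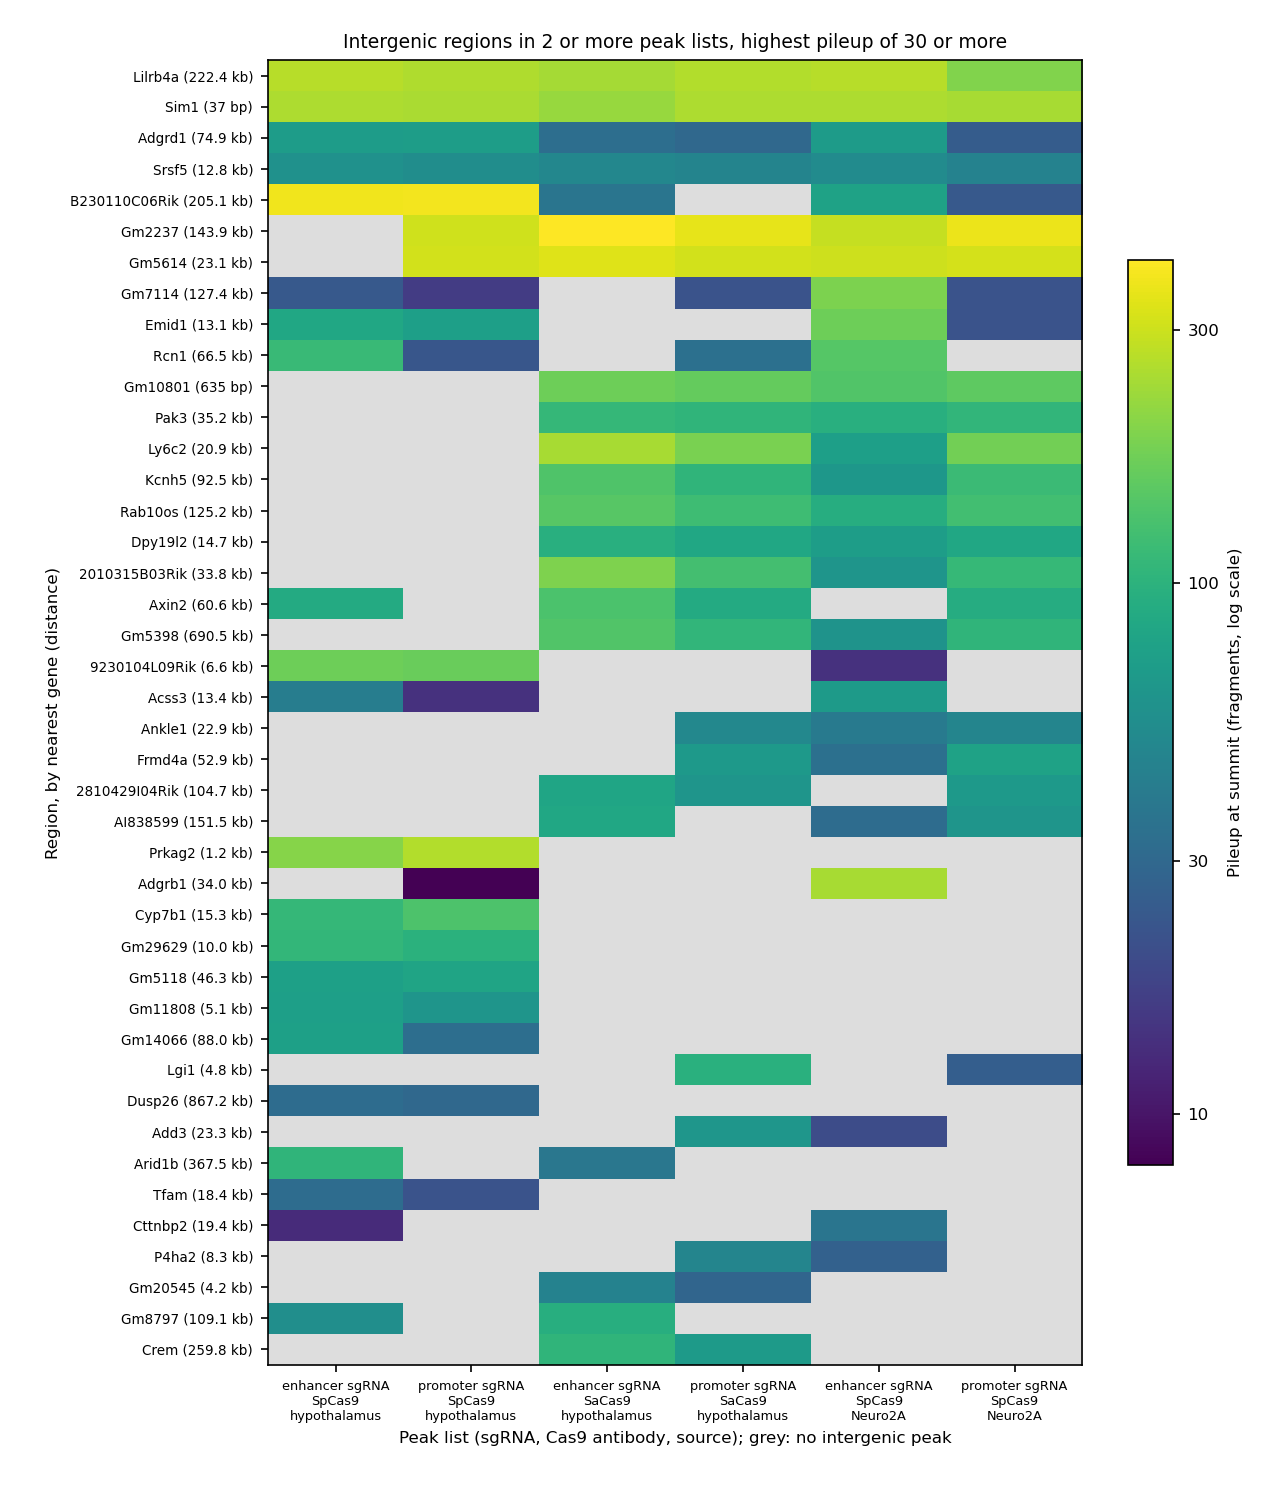
Pileup at the summit (colour, log scale, fragments) of the 42 regions found in 2 or more lists with a highest pileup of at least 30, with a row per region, named by nearest gene and distance, and a column per list; grey marks lists with no intergenic peak there. The top 4 rows are filled in all 6 columns, 8 rows are filled in both SpCas9 hypothalamus columns alone, and 8 rows are filled in each of the other 4 columns and in neither of those.

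Away from Sim1, the region with the most fragments over a low background was in hypothalamus. This B230110C06Rik region, chr14:15657551-15658482, lay 205106 bp downstream of a long non-coding RNA gene and had pileups of 376 with the enhancer sgRNA and 378 with the promoter sgRNA for SpCas9. It had more fragments than either Sim1 site in both lists. With the enhancer sgRNA its pileup was 37 for SaCas9 in hypothalamus and 77 in Neuro2A cells, and with the promoter sgRNA it was 24 in Neuro2A cells, with no peak in the SaCas9 list.

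Altogether 12 regions, the Sim1 sites included, held a peak of at least 100 fragments and 20-fold enrichment in some list, limits chosen after the values were seen. Of these, 10 were in both SpCas9 hypothalamus lists. The Prkag2 region, chr5:24860753-24861545, lay 1199 bp downstream of the gene for a regulatory subunit of AMP-activated protein kinase and had 199 fragments with the enhancer sgRNA and 259 with the promoter sgRNA for SpCas9 in hypothalamus, with no peak in the other 4 lists. The 9230104L09Rik region, chr2:148839384-148840094, had 172 with the enhancer sgRNA and 166 with the promoter sgRNA there, and 14 in Neuro2A cells with the enhancer sgRNA. Cyp7b1, which encodes an oxysterol hydroxylase, lay 15266 bp from a region with 110 fragments with the enhancer sgRNA and 135 with the promoter sgRNA, found for SpCas9 in hypothalamus alone. Gm29629 lay 10009 bp from another such region, with 108 fragments with the enhancer sgRNA and 98 with the promoter sgRNA.

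Regions found in both SpCas9 hypothalamus lists and in no other numbered 13, with Prkag2, Cyp7b1 and Gm29629 among them. Their pileups ran from 15 to 199 with the enhancer sgRNA and from 12 to 259 with the promoter sgRNA. The background plus 1 did not pass 3.38 fragments in these peaks. The nearest genes of this group also included Gm14066, Gm11808, Rph3a, Dusp26, Gm5118, Tfam, Glns-ps1 and Gm18737, and distances from the gene ran up to 867193 bp at Dusp26.

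With the SpCas9 antibody in hypothalamus, the guides gave like pileups where both lists had the region. Of 24 such regions, 21 differed by at most 2-fold, and the median ratio of enhancer to promoter sgRNA was 1.07. The lowest background plus 1 was 1.88 fragments with the enhancer sgRNA and 1.43 with the promoter sgRNA. Like pileups thus stood over unlike backgrounds, and whether binding was equal between the guides was not tested. The widest ratio was at Rcn1, a gene for a calcium-binding protein of the endoplasmic reticulum, where the region chr2:105465776-105466469 had 114 fragments with the enhancer sgRNA and 23 with the promoter sgRNA (ratio 4.96). As a share of each list, these regions held 24 of 61 peaks with the enhancer sgRNA (39.3%), and 24 of 32 with the promoter sgRNA (75%).

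In Neuro2A cells, regions away from Sim1 reached 100 fragments at 20-fold enrichment in the list of the enhancer sgRNA alone. The fold limit asks for more fragments in the promoter sgRNA list. Its lowest background plus 1 was 4.15 fragments, against 1.99 with the enhancer sgRNA. The Adgrb1 region, chr15:74481220-74482153, lay 34042 bp upstream of a gene for a brain adhesion receptor and had 244 fragments with the enhancer sgRNA, with no peak in the promoter sgRNA list of these cells. Its only other peak, of 8 fragments, was in the SpCas9 hypothalamus list of the promoter sgRNA. The Gm7114 region, chr1:32972826-32973536, had 187 with the enhancer sgRNA and 22 with the promoter sgRNA in Neuro2A cells, and 24 with the enhancer sgRNA and 16 with the promoter sgRNA for SpCas9 in hypothalamus.

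The Emid1 region, chr11:5165383-5166088, 13126 bp upstream of a gene for an extracellular matrix protein, had 172 with the enhancer sgRNA and 22 with the promoter sgRNA in Neuro2A cells, and 83 with the enhancer sgRNA and 74 with the promoter sgRNA for SpCas9 in hypothalamus. The Rcn1 region had 145 with the enhancer sgRNA in Neuro2A cells and no peak with the promoter sgRNA. These regions were thus shared with hypothalamus, while the Epas1 region, chr17:86721106-86721761, with 110 fragments, was in the Neuro2A list of the enhancer sgRNA alone. Epas1 encodes a hypoxia-inducible transcription factor. Another region of that list alone lay 110566 bp downstream of Mc4r at chr18:66745758-66747149 and had 71 fragments at 36.2-fold. It was chosen after its values were seen because Mc4r encodes a receptor that restrains feeding. Other regions of that list alone had more fragments, among them those of Dnajb12 (87) and Lbr (74).

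Over the 20 regions that both Neuro2A lists held, the ratio of enhancer to promoter sgRNA ran from 0.412 to 8.5, with 14 of 20 at most 2-fold apart, a wider range than in hypothalamus. The lists of these cells also differed in their lowest background plus 1, which was 1.99 fragments with the enhancer sgRNA and 4.15 with the promoter sgRNA. Between tissue and cells with the SpCas9 antibody, 13 of 61 peaks of the enhancer sgRNA in hypothalamus overlapped a peak of the same guide in Neuro2A cells (21.3%), and 13 of 57 the other way (22.8%). For the promoter sgRNA, 10 of 32 overlapped (31.3%), and 9 of 25 the other way (36.0%).

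Most peaks of each SaCas9 list overlapped a peak of the other guide, and most stood at high background. All 18 regions that both lists had were within 2-fold in pileup, with a median ratio of enhancer to promoter sgRNA of 1.19. The lowest background plus 1 was 5.74 fragments with the enhancer sgRNA and 3.65 with the promoter sgRNA. As a share of each list, overlapping peaks made up 72.0% with the enhancer sgRNA and 60% with the promoter sgRNA. A background plus 1 of at least 10 fragments, a limit chosen after the values were seen, was found in 19 of 25 peaks with the enhancer sgRNA (76%) and 17 of 30 with the promoter sgRNA (56.7%). In hypothalamus with the SpCas9 antibody it was found in 5 of 61 peaks with the enhancer sgRNA (8.20%) and 3 of 32 with the promoter sgRNA (9.38%). In Neuro2A cells it was found in 8 of 57 with the enhancer sgRNA (14%) and 17 of 25 with the promoter sgRNA (68%).

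Over all lists, 69 of the 230 peaks (30%) had such a background, with a median pileup of 105 fragments and a median fold of 3.40, while the other peaks had a median pileup of 29 and a median fold of 10.6. The highest pileups at these backgrounds were at 2 regions. The Gm2237 region, chr14:19415546-19419911, had 307 fragments in the promoter sgRNA list of SpCas9 in hypothalamus, 407 with the enhancer sgRNA and 350 with the promoter sgRNA for SaCas9, and 288 with the enhancer sgRNA and 365 with the promoter sgRNA in Neuro2A cells. The Gm5614 region, chr9:35304967-35305798, had 303 to 338 fragments in the same 5 lists. Neither was in the SpCas9 hypothalamus list of the enhancer sgRNA.

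A group of 8 regions was in both SaCas9 lists and both Neuro2A lists and in neither SpCas9 hypothalamus list. Their nearest genes were Gm10801, Dpy19l2, 2010315B03Rik, Rab10os, Kcnh5, Ly6c2, Gm5398 and Pak3. Fold enrichment for SaCas9 was 2.03 to 3.52 with the enhancer sgRNA and 2.71 to 5.91 with the promoter sgRNA. In Neuro2A cells it was 3.75 to 13.3 with the enhancer sgRNA and 2.33 to 5.06 with the promoter sgRNA. The pileups for SaCas9 were 96 to 244 with the enhancer sgRNA and 83 to 184 with the promoter sgRNA. The region nearest to a gene in this group lay 635 bp downstream of Gm10801. Against this, the Lgi1 region, chr19:38259107-38259749, was the strongest region over a low background that the SaCas9 lists held away from Sim1, with 97 fragments at 24.5-fold with the promoter sgRNA. Lgi1, which lay 4787 bp away, encodes a secreted protein of synapses.

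**Figure D3:**
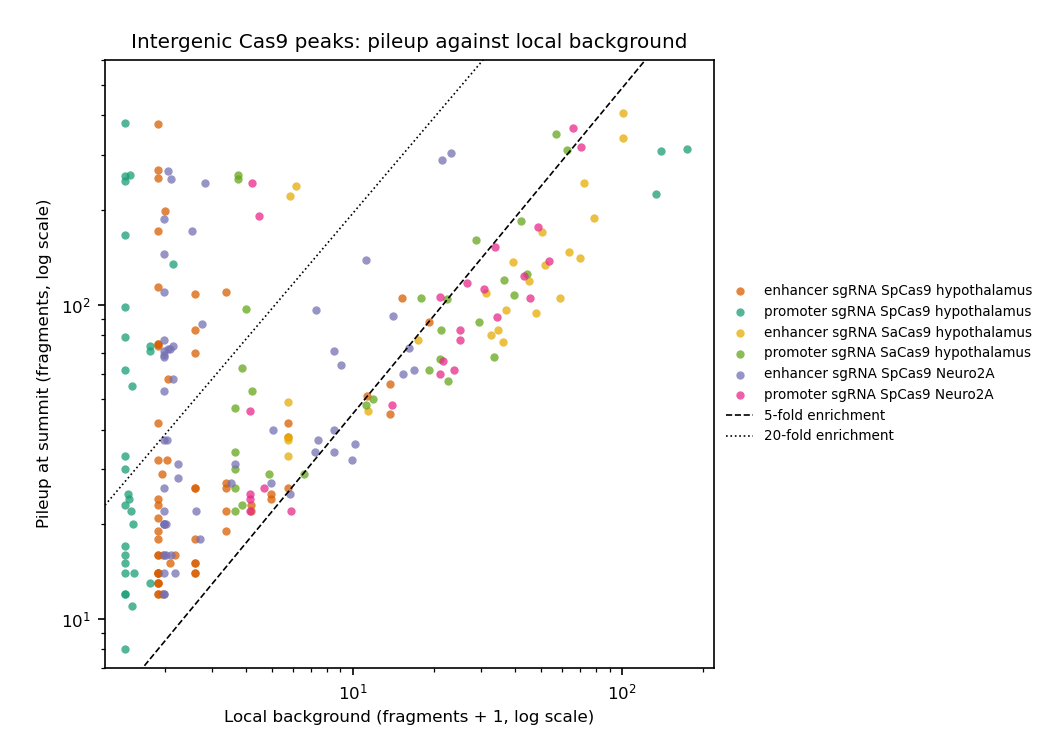
Pileup at the summit (fragments) against local background (fragments plus 1), both on log scales, for the 230 intergenic peaks, coloured by list, with lines at 5-fold and 20-fold enrichment. Peaks of 5-fold or more (164, median pileup 32) stand mostly at the lowest backgrounds, and peaks under 5-fold (66, median pileup 85.5) stand at the high ones.

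The regions lay at a median of 46290.5 bp from the nearest gene, with quartiles at 14245 and 134271 bp. Within 1 kb of a gene stood 4 regions, within 10 kb 20 and within 100 kb 80, and 40 lay farther away. The nearest gene had its start toward the region in 60 cases and its end in 60, and it coded for protein in 86. The regions of the SpCas9 hypothalamus list of the enhancer sgRNA alone lay at a median of 85717.5 bp, and the 13 regions of both SpCas9 hypothalamus lists at 18405 bp.

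The farthest region was on the Y chromosome, 17954020 bp from Gapdh-ps15, a pseudogene, and was found only in Neuro2A cells with the promoter sgRNA, at 60 fragments and 2.90-fold. On the other chromosomes the farthest was 937123 bp from Nxph1, a gene for a ligand of neurexins, with 19 fragments. Of the 12 regions with 100 fragments at 20-fold, 3 lay more than 100 kb from a gene: the distal Sim1 site and those of B230110C06Rik and Gm7114. The deposited table holds 22447 genes, fewer than RefSeq, and 46 of the 230 peaks, in 24 regions, overlapped a gene of RefSeq, those of the Sim1 promoter site among them.

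**Figure D4:**
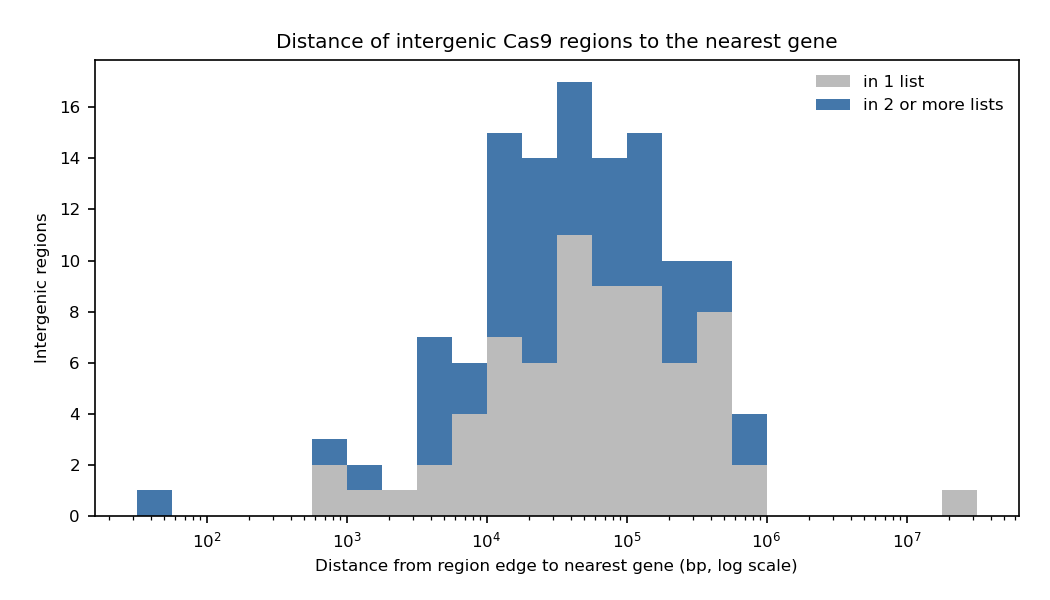
Number of intergenic regions by distance from the region's edge to the nearest gene (bp, log scale), stacked by whether a region was in 2 or more lists or in 1. Most regions lie between 10 kb and 1 Mb from a gene, the Sim1 promoter site stands alone at 37 bp, and the Y chromosome region stands at 17954020 bp.

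Whether the nearest genes differed in RNA was asked in the hypothalamus libraries, since Neuro2A cells have no RNA library here. All 12 hypothalamic marker genes were above 0 in every library, the lowest value being 21.7 normalized counts for Rax. Their sum was not level within a group. It ran from 28601.1 to 63591 normalized counts with the enhancer sgRNA and from 20140.2 to 74480.9 with the promoter sgRNA. In Sim1 heterozygous mice this sum ran from 34649.5 to 92073.5. All 5 choroid plexus markers were also above 0 in every library, and their sum ran from 412.6 to 798.6 normalized counts with the enhancer sgRNA, from 410.5 to 37575.7 with the promoter sgRNA and from 335.4 to 927.1 in Sim1 heterozygous mice. The sum of 5 cortical markers, also all above 0, ran from 343.4 to 8015.2 with the enhancer sgRNA, from 413.3 to 16561.5 with the promoter sgRNA and from 622.2 to 4364.1 in Sim1 heterozygous mice. The sum of 5 thalamic markers, all above 0, ran from 4531.0 to 28759.9 with the enhancer sgRNA, from 4671.8 to 19047.0 with the promoter sgRNA and from 4701.3 to 9067.4 in Sim1 heterozygous mice. The sum of 5 red blood cell markers, of which Hba-a2 was at 0 in some library, ran from 3072.4 to 7460.8 with the enhancer sgRNA, from 2701.4 to 6537.6 with the promoter sgRNA and from 5938.7 to 19995.0 in Sim1 heterozygous mice, so that the ranges overlapped but reached higher without an sgRNA. The part of these other tissues, and of the spread in hypothalamic markers, in the values below was not tested. In bulk tissue, fewer cells of a type and less RNA per cell cannot be told apart.

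With the enhancer sgRNA, 77 genes were nearest to a region of its hypothalamic lists, and 70 of them passed the minimum mean of 1 normalized count. None passed an adjusted p of 0.05 against Sim1 heterozygous mice by limma with Benjamini-Hochberg adjustment over all genes, as 0% of 20505 genes did. An unadjusted p under 0.05 was reached by 4 of the 70 (5.71%), beside 6.67% of all genes, 2 of them higher, beside 2.90%, and 2 lower, beside 3.77%. With the promoter sgRNA, 47 of 52 nearest genes were tested and none passed the adjusted threshold, again beside 0% of all genes. Here 4 of the 47 (8.51%) reached an unadjusted p under 0.05, beside 4.08% of all genes, 0 of them higher, beside 1.39% of all genes, and 4 lower, beside 2.68%. Counts from edgeR and DESeq2 on recovered reads were also 0 at the adjusted threshold for both sets, beside 0% of all genes by edgeR for both guides, and by DESeq2 0.0683% (14 genes) for the enhancer sgRNA and 0.0195% (4 genes) for the promoter sgRNA. At an unadjusted p under 0.05 each tool had 5 genes of the enhancer set, beside 7.13% of all genes by edgeR and 7.47% by DESeq2, and 4 of the promoter set, beside 4.19% by edgeR and 4.09% by DESeq2.

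Sim1 had 287.1, 352.9, 272.2 and 287.3 normalized counts with the enhancer sgRNA (299.9 ± 36.1, SD, n = 4), and 329.9, 157.8, 120.6 and 235.7 in Sim1 heterozygous mice (211.0 ± 92.6, SD, n = 4). One heterozygous library lay inside the range of the enhancer sgRNA group and the others below it. The log2 fold change was 0.61 with an SE of 0.32 (limma, adjusted p = 0.678). With the promoter sgRNA, Sim1 ran from 154.7 through a median of 208.7 to 431.0 (246.5 ± 108, SD, n = 6), and the groups overlapped. That log2 fold change was 0.23 with an SE of 0.29 (limma, adjusted p = 0.938), and without Sim1 heterozygous F_4 it was -0.01. The authors' deposited table gave Sim1 a log2 fold change of 1.25 with a false discovery rate of 0.0511 for the enhancer sgRNA, and 0.47 with 1.00 for the promoter sgRNA. Its header gives these as comparisons of yes against no for each guide, so they may rest on other groups than those of the limma fit. Of the nearest genes with a false discovery rate in the authors' deposited table, 0 of 56 for the enhancer sgRNA were under 0.05, beside 0.0427% of all genes, and 0 of 35 for the promoter sgRNA, beside 0.0548%.

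Lilrb4a, beyond the distal site, was near the floor of the measurement, with 5.3, 4.1, 2.1 and 9.4 normalized counts with the enhancer sgRNA and 3.1, 12.4, 11.7 and 6.2 in Sim1 heterozygous mice. Its log2 fold change was -0.67 with an SE of 0.79, and with the promoter sgRNA -1.23 with an SE of 0.72. B230110C06Rik, the address of the region with the most fragments over a low background away from Sim1, had 7.4, 8.3, 14.7 and 12.5 with the enhancer sgRNA and 15.1, 8.7, 15.9 and 12.3 in Sim1 heterozygous mice, and the groups overlapped.

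Prkag2 had 2174.0, 2102.9, 2100.1 and 2181.1 with the enhancer sgRNA and 2341.3, 2375.4, 2648.9 and 2432.3 in Sim1 heterozygous mice. All enhancer sgRNA libraries lay below all heterozygous ones, by a log2 fold change of -0.19 with an SE of 0.09 (limma, adjusted p = 0.678). Prkag2 was also picked among the nearest genes by its small p, so this separation follows in part from the choice. With the promoter sgRNA, Prkag2 ran from 2065.2 through 2359.1 to 2497.4, and the log2 fold change was -0.08 with an SE of 0.08.

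Axin2, an inhibitor of Wnt signalling, had 756.5, 1108.3, 818.7 and 941.2 with the enhancer sgRNA and 800.5, 608.8, 635.6 and 663.9 in Sim1 heterozygous mice, with 1 heterozygous library inside the other group's range. Arid1b, a subunit of a chromatin remodelling complex, had 2136.9, 2192.3, 2051.9 and 2175.9 with the enhancer sgRNA and 1860.6, 1072.2, 1657.4 and 1967.1 in Sim1 heterozygous mice, and the groups did not overlap. The lowest heterozygous values of Axin2 and Arid1b were both in F_3, the B6 animal, and strain was not in the fit. These genes and Tecrl, an enoyl-CoA reductase-like gene, were, with Prkag2, the 4 of smallest p for the enhancer sgRNA. Genes picked in this way tend to have groups that lie apart. The share of all genes whose groups did not overlap was not counted. The log2 fold changes were 0.42 (SE 0.17) for Axin2, 0.40 (SE 0.17) for Arid1b and -0.92 (SE 0.41) for Tecrl, each with an adjusted p of 0.678 by limma. For the promoter sgRNA the 4 were Cd177, a surface protein of neutrophils, Gm11808, Emid1 and the pseudogene Gm5614. Their log2 fold changes were -1.78 (SE 0.67), -1.21 (SE 0.47), -0.44 (SE 0.18) and -1.26 (SE 0.57), each with an adjusted p of 0.934 by limma. Of these, Emid1 was the only one measured well above the floor, with 87.3 to 118.0 normalized counts around a median of 100.2 with the promoter sgRNA, and 104.3, 176.4, 132.3 and 146.3 in Sim1 heterozygous mice.

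Srsf5 and Adgrd1, the addresses of the other regions of all 6 lists, did not pass either. Adgrd1 had 58.3, 149.2, 27.2 and 120.1 with the enhancer sgRNA and 54.7, 39.8, 62.0 and 41.6 in Sim1 heterozygous mice, for a log2 fold change of 0.62 with an SE of 0.54. With the promoter sgRNA it was 0.84 with an SE of 0.48. Srsf5 had log2 fold changes of 0.19 with an SE of 0.25 for the enhancer sgRNA and -0.01 with an SE of 0.23 for the promoter sgRNA, and the sign for the promoter sgRNA turned under other settings.

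**Figure D5:**
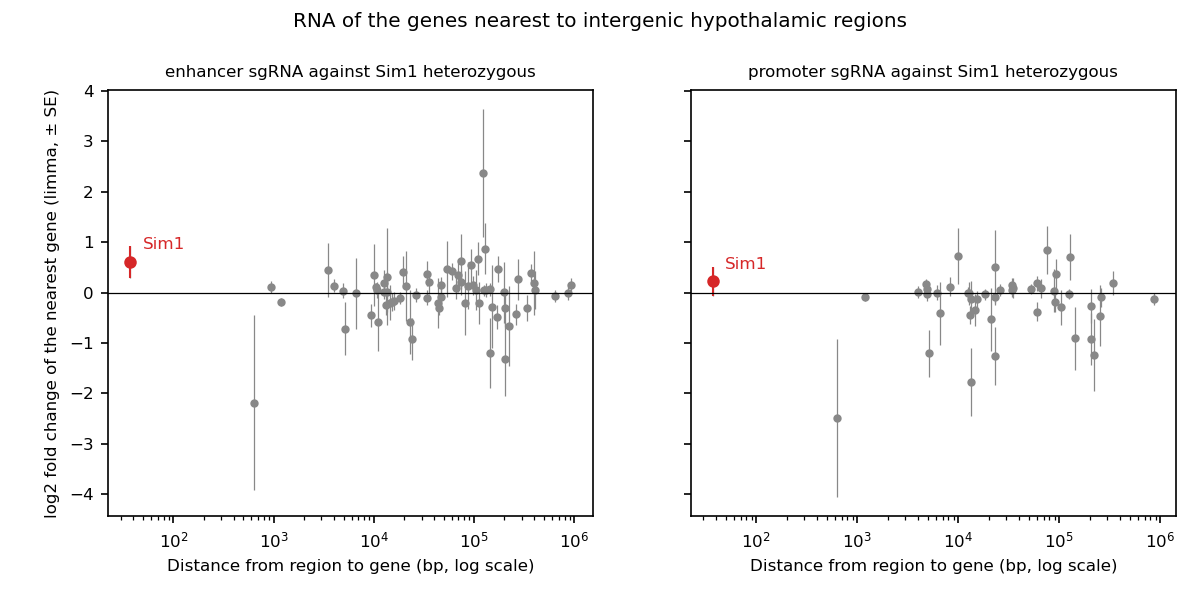
Log2 fold change of the nearest genes against Sim1 heterozygous mice (limma, points with SE) by distance from the region (bp, log scale), for the enhancer sgRNA (left, 70 genes) and the promoter sgRNA (right, 47 genes), Sim1 in red. Sim1 stands at 0.61 and 0.23, most genes lie close to 0, and the widest errors belong to genes of few counts.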

How the data were processed

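ChIP used formaldehyde-fixed tissue, a low cell number kit and ThruPLEX libraries, per the labels' protocols. The submitters' processing notes name MACS2 2.1.1.20160309, STAR 2.5.2b, DESeq2 1.16.1 and CASAVA 1.8, with no role for any, and the build mm9. The coordinates lie in GRCm38 instead: of 16614 genes matched to RefSeq GRCm38.p6 by identifier, 99.9% overlapped their match. Per the file headers, the authors deposited for each peak a pileup signal, a −log10 q-value and a fold enrichment, which is a ratio. Local background was computed as (pileup + 1)/fold. Neither the pooling of replicates nor the control of the peak calls is given in the sources used here. Input and no-sgRNA ChIP libraries were not analysed here, and total fragments per ChIP library are unknown.

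Per the file headers, the authors deposited normalized counts (a signal scaled per library), log2 fold changes and false discovery rates as adjusted p-values for their own comparisons. Columns of stabilized values (19) were not used. Because normalized counts were deposited and not raw counts, limma 3.58.1 in R 4.3.3 was used on log2(normalized count + 1), for 20505 genes with a mean of at least 1, all 19 libraries in 1 fit with sex as covariate. Folds on this scale understate changes of low genes. P-values measure the spread between libraries, taken as separate animals. Dividing by the library's step gave whole reads within 0.0505 for at least 99.97% of genes in 18 libraries, and edgeR 4.0.16 and DESeq2 1.42.0 were run on those reads as alternatives. Limma was also run on simulated counts that held no differences of strain or dissection, and no result above rests on that run. Peaks were handled in Python 3.11.15 with pandas 2.3.3. No genome was used, so peak sequences were taken only from RefSeq promoter windows, of which 2 overlapped an intergenic peak.

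Members and lists were chosen with earlier results of these data known. The text names the peaks within 1 Mb of Sim1, the 5 peaks of highest −log10 q in each list, the 10 regions in most lists (ties by summed −log10 q), the nearest and farthest peaks, their nearest genes, and the 4 nearest genes of smallest p for each guide. Some nearest genes are not reported here by name.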

Additional observations from a re-analysis of the deposited data

Results flagged for a closer look

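Normalized counts of the 16 named genes were checked for 1 library far from the rest of its group, in 48 groups of libraries. For normally spread values, chance alone flags about 1 group in 20, and 6 stood out. That rate does not hold for tied counts near 0, so the 6 are not read as an excess. With the enhancer sgRNA, Srsf5 had 4984.8 normalized counts in M_3, against 2825.2 to 3086.3 in the other libraries of the group, and Gm5614 had 0 in F_2, against 2.1 in each of the others. With the promoter sgRNA, Gm5614 had 3.1 in F_3, against 0 to 1.1 in the others, Gm7114 had 4.3 in F_2, against 1.0 to 1.8, and Cd177 had 3.2 in F_1, against 0 in all others. In Sim1 heterozygous mice, Tecrl had 9.9 in F_3, the B6 animal, against 4.2 to 5.0 in the others. All but the Srsf5 value lie at fewer than 10 normalized counts.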

How the results depend on the processing

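Counts of intergenic peaks per list, the median distance and the count of shared regions stayed within 1.5 times under RefSeq genes, genes extended by 1 kb, a −log10 q of at least 5, merging, summit-to-start distance and an overlap of at least 50% of both peaks. The count of nearest genes past the adjusted threshold was 0 for both guides in all settings. Few genes passed at all, so these counts say little about the nearest genes. Of all genes, 0 to 14 passed over the settings for the enhancer sgRNA, and 0 to 4 for the promoter sgRNA. The count at an unadjusted p under 0.05 moved for the promoter set to 1 with a mean of at least 10 (3.28% of all genes). Leaving out 1 library gave 1 to 11 for the enhancer set and 1 to 6 for the promoter set. For the enhancer set it was 1 without enhancer sgRNA F_2, beside 3.76% of all genes, 2 without enhancer sgRNA F_1, beside 3.99%, and 11 of 70 (15.7%) without Sim1 heterozygous F_1, beside 13.9%. For the promoter set it was 1 without Sim1 heterozygous M_1, beside 4.03%, and 6 without promoter sgRNA M_1, beside 7.05%. Without Sim1 heterozygous F_3, the B6 animal, it was 3 of 69 for the enhancer set, beside 3.38% of all genes. For the promoter set it was then 3 of 46, beside 3.26%. Replicate numbers share no stated origin, and the correlations of same-numbered libraries ran from 0.08 to 0.35. With the replicate number as a block, 2 genes of the enhancer set, beside 5.64% of all genes, and 1 of the promoter set, beside 3.56%, were under an unadjusted 0.05. None of either set passed the adjusted threshold, beside 4 of all 20505 genes for the enhancer sgRNA and 0 for the promoter sgRNA. Among single genes, signs turned only for the promoter sgRNA. Srsf5 was 0.012 with only the groups compared, 0.0015 with TMM scaling, 0.018 with edgeR, and -0.17 to 0.16 over the fits without 1 library. Over such fits Sim1 ran from -0.0082 (without Sim1 heterozygous F_4) to 0.47, and Rcn1 from -0.066 (without promoter sgRNA M_1) to 0.20. The cause was not tested. Fits on recovered reads left out wild-type F_4. The planned search for motifs in all peaks was not run, since no genome was used.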
